A study of Mus musculus with 6 samples.

Results

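The zinc-dependent histone deacetylases Hdac1 to Hdac10 were followed in RNA of mouse muscle stem cells (MuSCs), the cells that rebuild skeletal muscle after damage. Members were taken by gene symbol from the table of normalized read counts. The table held 22706 gene rows, and 11 of these carried 1 of the 10 symbols. Hdac4 had 2 rows. Libraries of 3 groups were available, with 2 libraries per group. Control mice were wild type. The mdx mice carried the dystrophin mutation of C57BL/10ScSn-Dmdmdx/J and model Duchenne muscular dystrophy. Sirt6mKO/mdx mice carried the same mutation and, in addition, a floxed Sirt6 allele whose exons 4 to 6 are removed by the Cre recombinase of Pax7-ICN, which is made constitutively in cells of the Pax7 lineage. The strain label is C57BL/6 for all libraries, and the cells came from limb and trunk muscle. Cells carrying Sca1, CD45 or CD31, which mark fibro-adipogenic, blood and endothelial cells, were first depleted with beads, and MuSCs were then sorted by flow cytometry, either by Integrin-a7 and CD34 or by a fluorescent reporter. The study describes its animals as males, and their stated age differs between its figures of MuSC RNA-seq. The volcano plot comes with a range that starts below 12 weeks and ends there, and the heat maps come with 12 weeks. Overlaps of comparisons come with 12 to 16 weeks in a main figure and 12 weeks in the supplement. The age behind each library is not labelled. The libraries of a group are biological replicates by the study's methods, but the labels do not name their animals. The p-values therefore rest on the spread between these libraries, moderated by the spread of other genes of like mean.

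Histone deacetylases remove acetyl groups from lysines of histones and of other proteins, and their action on histones is mostly linked to repression of transcription. Class I enzymes (Hdac1, Hdac2, Hdac3, Hdac8) are mainly nuclear, and all but Hdac8 work inside multi-protein corepressor complexes. Class IIa enzymes (Hdac4, Hdac5, Hdac7, Hdac9) have weak catalytic activity of their own, bind the MEF2 transcription factors that drive muscle genes, and leave the nucleus when kinases phosphorylate them and 14-3-3 proteins bind them. Class IIb is formed by Hdac6, a cytoplasmic deacetylase of tubulin and of the chaperone HSP90, and by Hdac10, a deacetylase of polyamines.

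Libraries held approximately 4392318 to 9737559 reads assigned to genes, as recovered from the size factors behind the values. All 10 MuSC markers examined were above 0 in every library, and their summed values ranged from 19122 to 25411, but 2 of them, Sdc4 and Chrdl2, were called lower in mdx than in control (log2 fold changes -2.69 and -2.36). A few features of the libraries touch the results. Sirt6 had normalized read counts of 41 and 32 in control, against 33 and 40 for mdx and 37 and 30 for libraries labelled Sirt6mKO/mdx. These counts cover the whole gene and cannot show the loss of single exons, and the difference from mdx was -0.12 on the log2 scale (95% interval -1.19 to 0.95), so the deletion was not visible at this level. Further, Xist, the RNA of the inactive X chromosome, was at 16772 and 12950 in control, against 7 and 8 for mdx and 33 and 34 for libraries labelled Sirt6mKO/mdx, while the Y-linked gene Ddx3y was at 3 and 8, at 1024 and 1055, and at 1555 and 1767. The Xist and Ddx3y values of the control libraries go against the description of the animals as male. Sex and genotype therefore cannot be told apart in either comparison with control, which bears first of all on the X-linked members Hdac6 and Hdac8. In addition, the summed values of 11 immediate early and dissociation response genes were 131461 and 141998 in control, against 20735 and 22998 for mdx and 106949 and 93634 for libraries labelled Sirt6mKO/mdx.

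Tests were run on genes with a mean over all libraries of 5 or more. A gene is described as called where the two-sided limma test gave a Benjamini-Hochberg adjusted p of 0.05 or less together with a log2 fold change of at least 1 in either direction. Of the 11 rows, 10 passed the minimum and 9 of the 10 genes were therefore tested. The exception was Hdac9, for which at most 11 normalized reads were listed in a library. Fold changes are on the scale log2(value + 1). The 3 comparisons share groups, so that a library low or high in 1 of them acts on another. Overlap of library values between groups is given below as a description only. With 2 libraries against 2, an exact two-sided permutation test cannot go below p = 0.333 even where groups do not overlap. The share of all genes without overlap was not calculated.

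**Figure D1:**
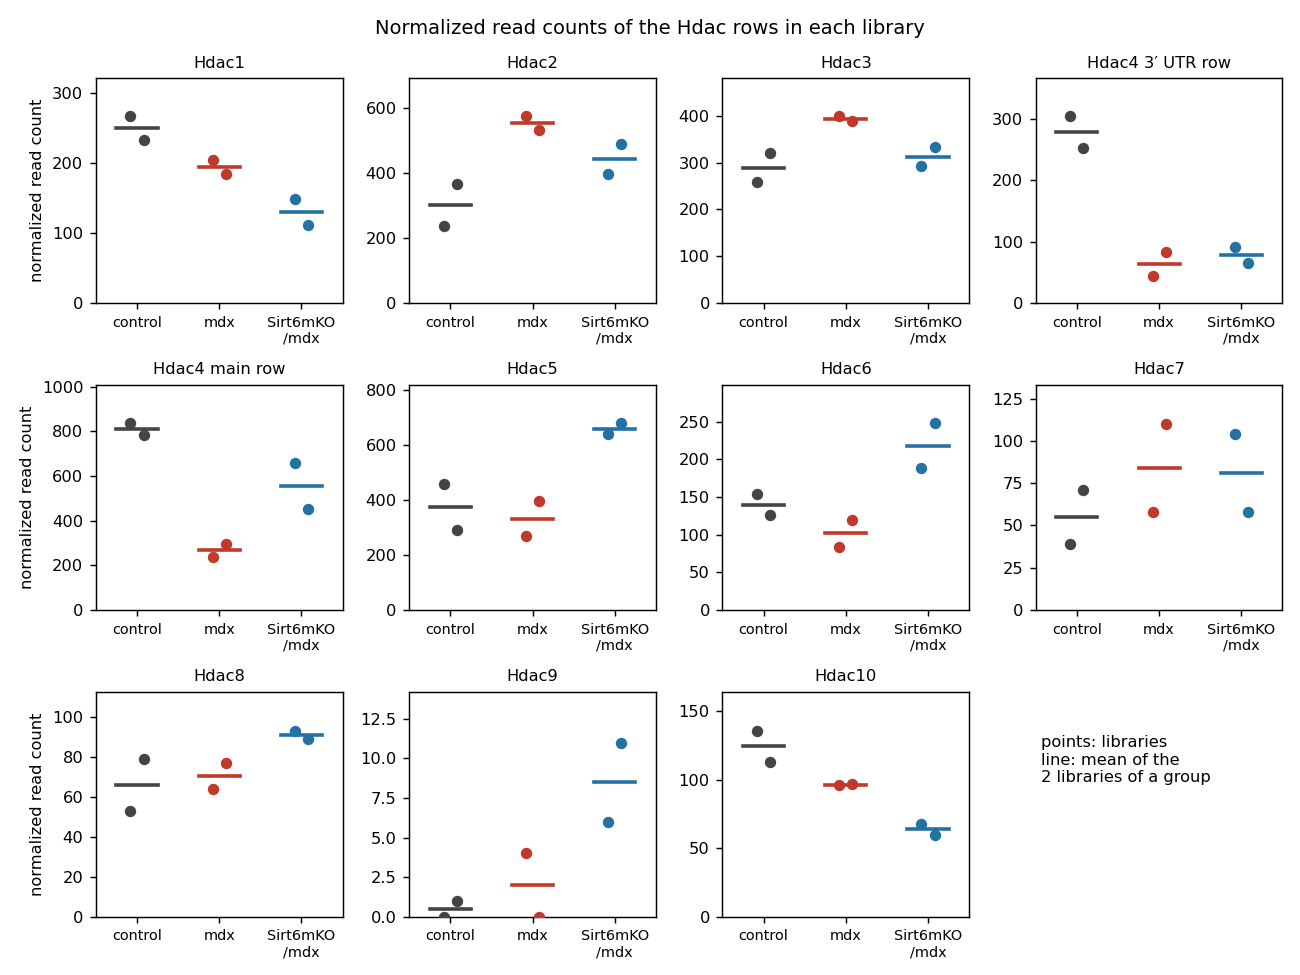
Normalized read count (vertical axis, linear from 0, own scale per panel) of each Hdac row in the libraries of control, mdx and Sirt6mKO/mdx, with a point per library and a line at the mean of the 2 libraries of a group. Both Hdac4 rows are far lower in mdx than in control, and of these the main row, with 656 and 451, but not the 3′ UTR row, with 91 and 65, is clearly above the mdx libraries in Sirt6mKO/mdx.

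Hdac4, a class IIa enzyme that binds MEF2 and is known to respond to loss of the nerve in muscle, showed the largest log2 fold change among the Hdac rows tested. One of its rows (ENSMUSG00000026313, minus strand of GRCm38 chromosome 1, 91932757 to 92148393) spans most of the gene and is called the main row here. It includes 69.3% of the exonic bases that GENCODE M21 gives Hdac4. The other row (ENSMUSG00000073617, chromosome 1, 91928785 to 91931176) is not in that annotation and lies wholly within the last exon of Hdac4, in the distal part of the 3′ untranslated region (UTR). Of the 4568 bases of this UTR, 590 fall in the main row, 1580 lie between the rows and were counted by neither, 2392 belong to the 3′ UTR row and 6 lie beyond it.

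The 3′ UTR row also covers the only full match of the UTR to bases 2 to 8 of miR-206, a microRNA of skeletal muscle that is known to repress Hdac4. Shorter matches to the seed were not searched. The mature microRNA (RefSeq, GRCm38.p6) and the site are shown to mark where the row lies, with the seed (bases 2 to 8) and its match in capitals.
mmu-miR-206-3p: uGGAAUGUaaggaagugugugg
Hdac4 site: ttctttcctcagaACATTCCttct
The match starts at base 3281 of the UTR (GRCm38 chromosome 1, 91930060 to 91930066). Among 4166 genes with a UTR at least as long as the row, 16.5% hold the same 7 bases (ACATTCC) in their last 2392 bases. The match is a description of the sequence, and binding of the microRNA was not measured here.

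The main row of Hdac4 was at 838 and 784 in control, against 238 and 297 for mdx and 656 and 451 for libraries labelled Sirt6mKO/mdx. The 3 groups did not overlap, with control highest and mdx lowest. Against control it was 3.04-fold lower in mdx (log2 fold change -1.60, SE 0.26, 95% interval -2.16 to -1.05, limma adjusted p = 0.000725). In libraries labelled Sirt6mKO/mdx it was 2.04-fold higher than in mdx (log2 fold change 1.03, SE 0.26, 95% interval 0.48 to 1.58, limma adjusted p = 0.0237). Against control its log2 fold change was -0.57 in these libraries, without a call (95% interval -1.13 to -0.02, limma adjusted p = 0.19).

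The 3′ UTR row was at 304 and 253 in control, against 44 and 84 for mdx and 91 and 65 for libraries labelled Sirt6mKO/mdx. The latter groups overlapped, and both lay below control. The row was 4.5-fold lower in mdx than in control (log2 fold change -2.17, SE 0.37, 95% interval -2.96 to -1.38, limma adjusted p = 0.00111) and 3.57-fold lower in libraries labelled Sirt6mKO/mdx than in control (log2 fold change -1.84, SE 0.37, 95% interval -2.63 to -1.04, limma adjusted p = 0.00685). The latter call was lost without Sirt6mKO/mdx replicate 2 (log2 fold change -1.60, limma adjusted p = 0.146). Between libraries labelled Sirt6mKO/mdx and mdx the row differed by 0.33 on the log2 scale (95% interval -0.46 to 1.13, limma adjusted p = 0.625), and this value turned to -0.13 without mdx replicate 1. These values rest on approximately 35 to 328 reads per library, against 242 to 1017 for the main row.

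The 2 rows of Hdac4 thus had unequal shares in the groups. The 3′ UTR row made up 26.6% and 24.4% of both rows together in control, against 15.6% and 22% for mdx and 12.2% and 12.6% for libraries labelled Sirt6mKO/mdx. No groups overlapped. The log2 ratio of the 3′ UTR row to the main row differed by -0.58 between mdx and control, by -0.69 between Sirt6mKO/mdx and mdx, and by -1.27 between Sirt6mKO/mdx and control. With 2 libraries against 2, an exact two-sided permutation test cannot go below p = 0.333, which is the value it gave for each difference. A difference in transcript ends, in transcript length recovered or in reads of overlapping transcripts was not tested. The main row shares 3536 exonic bases with other annotated genes, among them the lincRNA Gm26720 on the opposite strand, whose own values were 116 and 69, 16 and 33, and 25 and 50 in the same order of groups. The authors left out reads that fall on several genes, and use of strand in counting is not stated, so it is not known whether reads on the shared bases were dropped or assigned to 1 of the genes.

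**Figure D2:**
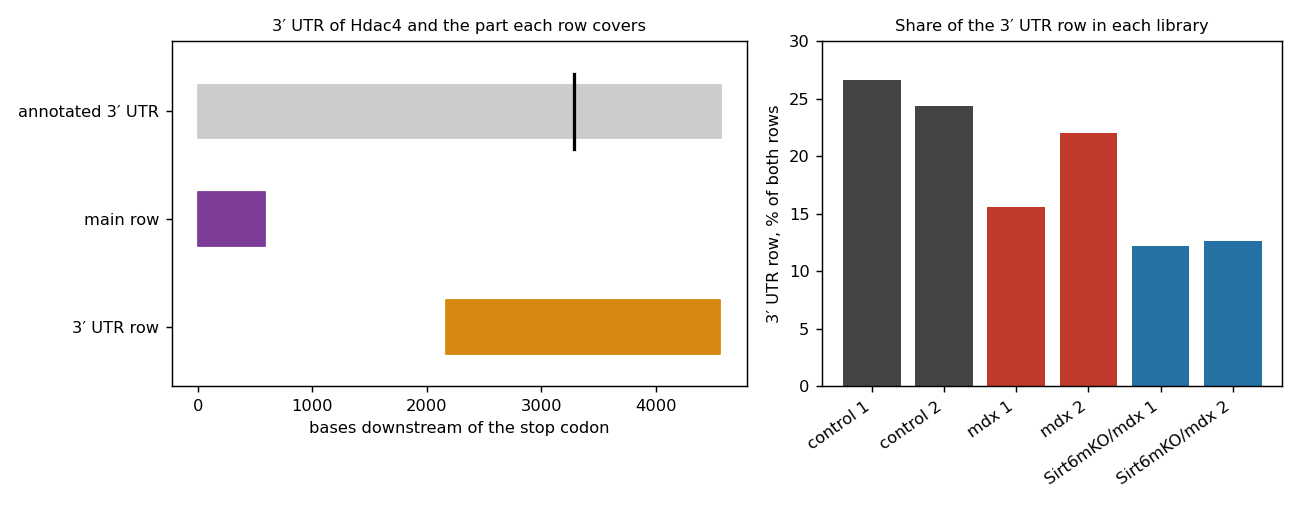
Left, the annotated 3′ UTR of Hdac4 in bases downstream of the stop codon, with the parts that belong to the main row (590 bases) and to the 3′ UTR row (2392 bases), and a black line at the miR-206 seed match. Right, the 3′ UTR row as a percentage of both Hdac4 rows in each library, from 26.6% and 24.4% in control to 12.2% and 12.6% in Sirt6mKO/mdx.

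With both rows summed, Hdac4 was at 1142 and 1037 in control, against 282 and 381 for mdx and 747 and 516 for libraries labelled Sirt6mKO/mdx. It was still called lower in mdx, but its difference between libraries labelled Sirt6mKO/mdx and mdx fell short of the minimum fold (log2 fold change 0.92, limma adjusted p = 0.0422). In these bulk samples, fewer cells that express a gene and less of its RNA per cell cannot be told apart. The immediate early genes given above were, like Hdac4, lowest in mdx, and the summed values of 8 fibro-adipogenic markers were highest there (36955 and 31131, against 19898 and 26340 in control and 19329 and 27481 in libraries labelled Sirt6mKO/mdx). Most of that sum was Col3a1, at 30817 and 26928 in mdx, which was not called (log2 fold change 0.57 against control, limma adjusted p = 0.535), and 2 of the 8 markers, Col1a1 and Ly6a, were called higher in mdx. Single markers went other ways, with Pi16 lowest in mdx and Cd248 and Lum at their highest mean in libraries labelled Sirt6mKO/mdx. Pdgfra, Ly6a and Lum differed widely between libraries of a group. They were at 195 and 18, 79 and 21, and 315 and 64 in mdx. In libraries labelled Sirt6mKO/mdx they were at 142 and 19, 65 and 15, and 316 and 102. Not all markers of the list split in this way. The 11 immediate early genes were all called lower in mdx against control. Myofibre markers summed to 4732 and 1444 in mdx, under the 6653 and 8708 of control and the 10432 and 4799 of Sirt6mKO/mdx, and 4 of the 8 were called lower in mdx against control. Endothelial markers summed to 937 and 821 in control, against 435 and 425 for mdx and 642 and 635 for libraries labelled Sirt6mKO/mdx, the same order of groups as the main row of Hdac4, and 2 of the 6 tested, Pecam1 and Kdr, were called lower in mdx against control. Among MuSC markers, Sdc4 was at 7692 and 6224 in control, against 1100 and 1049 for mdx and 2753 and 2822 for libraries labelled Sirt6mKO/mdx, again the order of the main row, and Chrdl2 had its group means in this order too. Smooth muscle and pericyte markers summed to 3564 and 3570 in mdx, above the 1541 and 2690 of control and the 1485 and 2135 of libraries labelled Sirt6mKO/mdx, with 1 of 5, Acta2, called higher in mdx against control (1.18). The 7 leukocyte markers analysed summed to at most 192 in a library, and of the 5 tested 1 was called higher and 1 lower in mdx against control. The genes of Sca1, CD45 and CD31 (Ly6a, Ptprc and Pecam1) stand in these lists and their cells were depleted before the sort, and the part of all these markers in the Hdac4 values was not tested.

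In mdx against control, the 2 rows called were both of Hdac4, in a comparison where 14.2% of all genes tested were called, 6.89% higher and 7.34% lower. None of the other 8 rows tested was called. Leaving out any 1 library kept both Hdac4 calls. They were lost with no minimum mean (adjusted p = 0.0526 for the main row and 0.0644 for the 3′ UTR row) and with 1 prior variance for all genes (0.0622 and 0.0568), both under limma. Of all genes tested, these settings called 1.79% and 3.4%.

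Hdac2, a class I deacetylase of the Sin3, NuRD and CoREST complexes, differed in the other direction. It was at 236 and 367 in control, against 574 and 533 for mdx and 395 and 490 for libraries labelled Sirt6mKO/mdx. All mdx values lay above all others. Its log2 fold change in mdx against control was 0.91 (SE 0.27, 95% interval 0.33 to 1.48, limma adjusted p = 0.0317), which passed the test but not the minimum fold. Without control replicate 2, the higher of the control values, it was called (log2 fold change 1.23, limma adjusted p = 0.0157), and without control replicate 1 the value was 0.59 (adjusted p = 0.217). The adjusted p was also above 0.05 without mdx replicate 1 (0.201), mdx replicate 2 (0.123) or Sirt6mKO/mdx replicate 2 (0.065), and GC centring gave a log2 fold change of 0.57 (limma adjusted p = 0.149). The sum of the fibro-adipogenic markers given above was highest in mdx as well, though not every marker was (Pi16 was at 22 and 14 in mdx, against 41 and 26 in control). The sum of smooth muscle and pericyte markers was highest in mdx too, and the part of both lists in the Hdac2 value was not tested.

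Hdac3, the catalytic subunit of the NCoR complexes, had values of 258 and 320 in control, against 399 and 388 for mdx and 293 and 333 for libraries labelled Sirt6mKO/mdx. The mdx libraries were again above the rest, by 0.45 on the log2 scale against control (95% interval -0.08 to 0.99, limma adjusted p = 0.242).

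Hdac1, the closest relative of Hdac2 and its partner in the same complexes, was at 267 and 234 in control, against 205 and 184 for mdx and 149 and 112 for libraries labelled Sirt6mKO/mdx. The order of the groups was therefore control, mdx and Sirt6mKO/mdx, with no overlap between neighbours. No step passed the test. The whole distance from control to Sirt6mKO/mdx was -0.95 on the log2 scale (SE 0.28, 95% interval -1.55 to -0.34, limma adjusted p = 0.0508). Hdac1 has a processed pseudogene, Gm10093, that matches 70.9% of its transcript at 99.4% identity. Reads that map to more than 1 place were left out by the authors, so the level of Hdac1 may be understated, while Gm10093 itself had no more than 6 normalized reads in a library.

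Since both enzymes take the same place in corepressors, their ratio was calculated per kilobase (kb) of exon. The length is the union of annotated exons, 3445 bases for Hdac1 against 2038 for its longest transcript. The size of the ratio depends on this choice and on reads of Hdac1 lost to its pseudogene copy. The order of the libraries does not depend on the length. The Hdac2 to Hdac1 ratio was 0.681 and 1.21 in control, against 2.16 and 2.23 for mdx and 2.04 and 3.37 for libraries labelled Sirt6mKO/mdx. Both control libraries had a lower ratio than all the others, while the 2 groups of mdx background overlapped.

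Hdac8, an X-linked class I enzyme that deacetylates the cohesin subunit SMC3, had values from 53 to 93 in the 6 libraries. No comparison was called, and the log2 fold change was 0.12 in mdx against control (95% interval -0.70 to 0.93) and 0.37 in libraries labelled Sirt6mKO/mdx against mdx (95% interval -0.45 to 1.18).

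**Figure D3:**
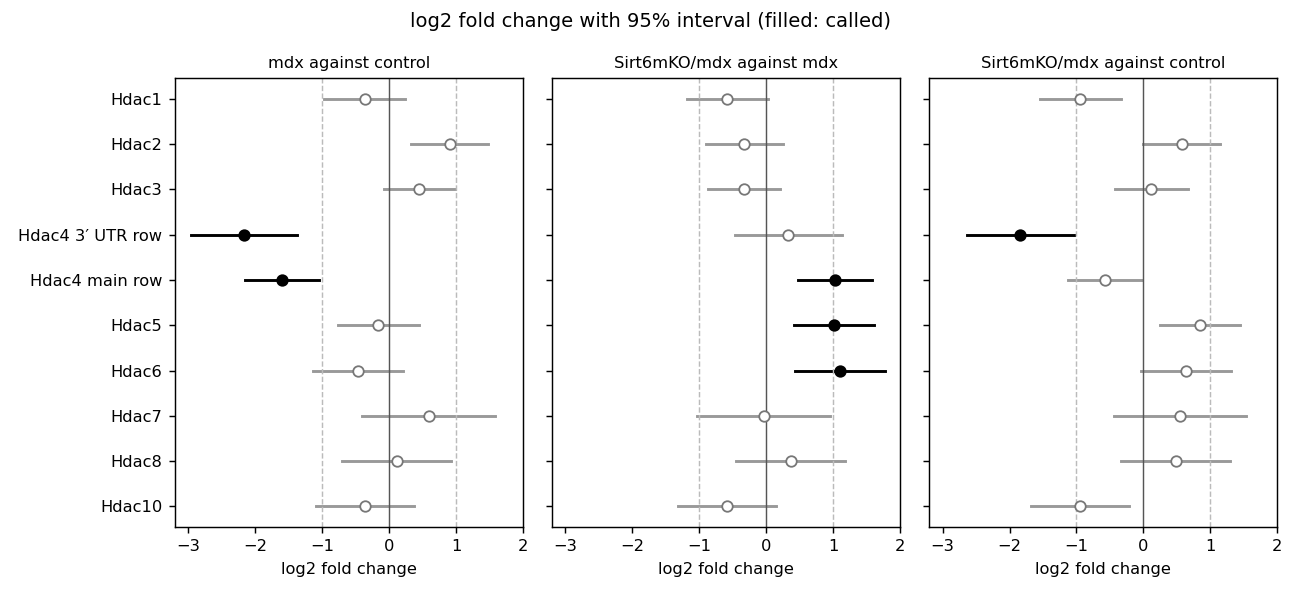
log2 fold change (horizontal axis) of each tested Hdac row with its 95% interval in 3 comparisons, with filled points for called rows and dashed lines at the minimum fold change of 1 in either direction. The Hdac4 rows at -1.60 and -2.17 are the only ones called in mdx against control, and Hdac4 (main row), Hdac5 and Hdac6 lie just beyond 1 in Sirt6mKO/mdx against mdx.

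Between libraries labelled Sirt6mKO/mdx and mdx, a comparison that does not cross the split in Xist and Ddx3y, 3 members were called, and all were higher. They were the main row of Hdac4, given above, Hdac5 and Hdac6. In the same comparison all 11 immediate early genes and 4 of the 8 myofibre markers were called higher. Of the other cell type markers, Sdc4 (MuSC) and Hbb-bs (erythroid) were called higher, and Col1a1 (fibro-adipogenic) and Tagln (smooth muscle) lower. The part of all these genes in the values of these 3 members was not tested. Among all genes tested, 8.17% were called, 5.62% higher and 2.54% lower. Each of the 3 lay close to the minimum fold change, and each lost its call when any library of either group was left out. Such a fit leaves that group without a replicate, and far fewer of all genes were called in it as well. The log2 fold changes then ranged from 0.76 to 1.30 for Hdac4, from 0.74 to 1.29 for Hdac5 and from 0.85 to 1.36 for Hdac6. All 3 also fell under the minimum fold with scaling by the upper quartile, at 0.92, 0.90 and 0.99. Scaling by the total of the values shifted the median of all genes to -0.59, left the 3 uncalled at 0.40, 0.39 and 0.48, and called Hdac1 and Hdac10 lower, both at -1.21. The values of all genes summed to 9626453 and 8883310 in libraries labelled Sirt6mKO/mdx, against 6381937 and 5612149 for mdx. Their size factors were 0.6452 and 0.5366, against 1.5258 and 1.2846 for mdx. Depth and total thus both separated these groups, and their part in the calls was not tested.

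Hdac5 (GRCm38 chromosome 11, 102194432 to 102230166), a class IIa enzyme that binds MEF2 factors like Hdac4, was at 458 and 291 in control, against 270 and 395 for mdx and 639 and 681 for libraries labelled Sirt6mKO/mdx. The libraries labelled Sirt6mKO/mdx lay above all others, and control and mdx overlapped. The gene was 2.02-fold higher than in mdx (log2 fold change 1.01, SE 0.28, 95% interval 0.41 to 1.61, limma adjusted p = 0.0374). Against control the value was 0.85 (95% interval 0.25 to 1.45, limma adjusted p = 0.0753). With genes centred by their GC content the value against mdx fell to 0.43 (limma adjusted p = 0.31). The row held approximately 303 to 507 reads per library, and 111 of its exonic bases are shared with the microRNA gene Mir8101. Hdac5 was not called in mdx against control, where its log2 fold change was -0.16 (95% interval -0.76 to 0.44).

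Hdac6 (GRCm38 chromosome X, 7930120 to 7947889), the cytoplasmic deacetylase of tubulin, was at 154 and 126 in control, against 84 and 120 for mdx and 189 and 248 for libraries labelled Sirt6mKO/mdx. The 3 groups did not overlap, with mdx lowest and Sirt6mKO/mdx highest. It was 2.14-fold higher than in mdx (log2 fold change 1.10, SE 0.32, 95% interval 0.43 to 1.78, limma adjusted p = 0.0424). In mdx against control the log2 fold change was -0.47 (95% interval -1.14 to 0.21, limma adjusted p = 0.34), in a comparison where sex and genotype cannot be told apart for this X-linked gene. Approximately 102 to 163 reads per library stood behind these values.

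The promoters of these 3 members are printed because their rows were called in the same direction. The Hdac4 promoter lies upstream of the span of its main row, so reads at that transcript start were not part of the called value. Each runs from 250 bases before to 50 bases after the transcript start on the minus strand (RefSeq, GRCm38.p6), and capitals mark GC boxes (GGGCGG) and CCAAT boxes (CCAAT) on either strand.
Hdac4 promoter, chr1:92180292-92180591: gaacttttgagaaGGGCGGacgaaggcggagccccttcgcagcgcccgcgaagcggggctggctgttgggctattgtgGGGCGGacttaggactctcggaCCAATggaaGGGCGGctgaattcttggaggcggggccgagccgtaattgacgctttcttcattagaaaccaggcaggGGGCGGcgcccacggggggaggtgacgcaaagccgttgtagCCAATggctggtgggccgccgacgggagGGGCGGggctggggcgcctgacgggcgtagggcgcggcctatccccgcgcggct
Hdac5 promoter, chr11:102230123-102230422: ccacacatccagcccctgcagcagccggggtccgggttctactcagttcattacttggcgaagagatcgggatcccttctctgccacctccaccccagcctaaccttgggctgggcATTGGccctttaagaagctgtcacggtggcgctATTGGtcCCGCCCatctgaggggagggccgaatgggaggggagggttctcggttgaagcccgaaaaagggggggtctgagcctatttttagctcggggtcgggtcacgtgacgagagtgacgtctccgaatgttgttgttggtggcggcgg
Hdac6 promoter, chrX:7947840-7948139: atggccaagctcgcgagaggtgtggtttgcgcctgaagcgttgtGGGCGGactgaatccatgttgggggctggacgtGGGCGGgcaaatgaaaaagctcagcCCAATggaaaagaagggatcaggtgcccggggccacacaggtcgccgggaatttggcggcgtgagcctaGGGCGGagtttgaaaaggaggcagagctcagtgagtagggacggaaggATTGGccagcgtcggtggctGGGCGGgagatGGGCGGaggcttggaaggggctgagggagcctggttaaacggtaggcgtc
GC boxes numbered 5 in Hdac4, 1 in Hdac5 and 5 in Hdac6, and each promoter held 2 CCAAT boxes. Of 32851 mouse promoters of the same length, 35.7% held a GC box and 37.4% a CCAAT box. None of the 3 held a full cyclic AMP response element (TGACGTCA, 1.8% of promoters), an AP-1 site (TGANTCA, 7.8%) or a TATA box (TATAAA, 13.6%), with both strands searched. The first 5 bases of that response element (TGACG, 20.8% of promoters) were found in Hdac4 and Hdac5, and an E-box (CANNTG, 72.3%) in Hdac5 and Hdac6. The GC content was 68.0% in Hdac4, 60.7% in Hdac5 and 62.0% in Hdac6. No factor was measured at these promoters.

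Hdac10, a class IIb deacetylase of polyamines, was at 136 and 113 in control, against 96 and 97 for mdx and 68 and 60 for libraries labelled Sirt6mKO/mdx. It followed the same order as Hdac1 without overlap between groups. It was not called in any comparison, and its log2 fold change against control was -0.95 in libraries labelled Sirt6mKO/mdx (SE 0.34, 95% interval -1.68 to -0.22, limma adjusted p = 0.102). Hdac6, the other class IIb enzyme, was highest in the group where Hdac10 was lowest.

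Hdac7, the class IIa enzyme best known from endothelial cells and thymocytes, was at 39 and 71 in control, against 58 and 110 for mdx and 104 and 58 for libraries labelled Sirt6mKO/mdx. The 3 groups overlapped, 29 exonic bases are shared with Slc48a1, and the value against mdx (log2 fold change -0.04, 95% interval -1.03 to 0.95) turned positive when mdx replicate 2 or Sirt6mKO/mdx replicate 2 was left out (0.42 and 0.38). Hdac9, a class IIa enzyme of differentiated muscle, was listed at 0 and 1 in control, against 4 and 0 for mdx and 6 and 11 for libraries labelled Sirt6mKO/mdx, from at most 6 reads in a library. Its row spans only 49.4% of the exonic bases of GENCODE M21, so that reads of its remaining exons were not counted in it.

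In libraries labelled Sirt6mKO/mdx against control, 1 of the 10 rows was called, the 3′ UTR row of Hdac4, against 7.87% of all genes tested, 5.19% higher and 2.68% lower. Hdac1, Hdac10 and the main row of Hdac4 had negative values there, and Hdac2, Hdac3, Hdac5, Hdac6, Hdac7 and Hdac8 had positive ones, all without a call. Hdac5 was called higher without control replicate 1, at 1.18, while it was at 0.53 without control replicate 2 (limma adjusted p = 0.372) and at 0.46 with GC centring.

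Levels of different genes were compared only per kb of exon, on the linear scale. The length is the union of annotated exons in the span of a row, which can exceed any single transcript. For Hdac1 it was 3445 bases, against 2038 for its longest transcript. Ranks between genes and the class shares below therefore depend on this choice of length. In control the 3′ UTR row of Hdac4 was highest at 116 per kb, followed by its main row at 74.0, Hdac1 at 72.7, Hdac3 at 71.8 and Hdac2 at 67.4, and in this row of 5 only the first 2 did not overlap. In mdx the order was led by Hdac2 at 124 and Hdac3 at 97.7, without overlap. The main row of Hdac4 stood at 24.4, below Hdac10 and the 3′ UTR row, which it overlapped, and above Hdac6, Hdac8, Hdac7 and Hdac9. The length of the main row includes the 3536 bases shared with other genes. If reads there were dropped, its level per kb is understated. In libraries labelled Sirt6mKO/mdx, Hdac2 at 98.9 was again first, then Hdac3 at 77.7 and Hdac5 at 75.2, which overlapped. Hdac9 was last in every group, at no more than 1.17 per kb.

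Summed over class I genes, the values per kb were 205.3 and 245.8 in control, against 300.1 and 284.8 for mdx and 223.5 and 243.1 for libraries labelled Sirt6mKO/mdx. Class IIa genes (with the main row for Hdac4) summed to 134.4 and 115.4, to 61.6 and 88.4, and to 148.9 and 128.8. Class I thus held 74.2% and 67.4% of the family's summed values per kb in mdx, against 50.5% and 59% in control and 52.6% and 56.2% in libraries labelled Sirt6mKO/mdx. Both mdx libraries lay above the other 4. Class IIb held between 10.6% and 16.4% in all libraries.

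**Figure D4:**
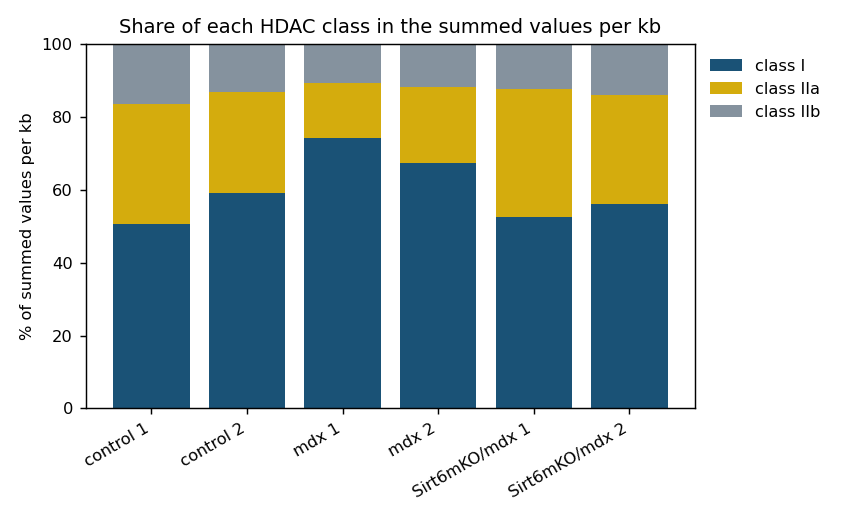
Share of class I, class IIa and class IIb genes in the summed normalized read counts per kb of exon (vertical axis, percent) in each library. Class IIa takes 15.2% and 20.9% in the mdx libraries and 27.7% to 35% in the others.

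Genes that work with the deacetylases were described by lists of background knowledge. Among 22 tested partners and kinases of class IIa enzymes, 1 was called higher and 2 lower in mdx against control, which is 13.6% beside the 14.2% of all genes, and the median log2 fold change was -0.22 (0 over all genes tested). Sik1, a salt-inducible kinase that phosphorylates class IIa enzymes and is itself induced by cyclic AMP, was at 4834 and 3998 in control, against 434 and 582 for mdx and 4011 and 2934 for libraries labelled Sirt6mKO/mdx. Its log2 fold change was -3.13 in mdx against control (SE 0.28, limma adjusted p = 3.38e-06) and 2.77 in libraries labelled Sirt6mKO/mdx against mdx (SE 0.28, limma adjusted p = 2.67e-05). All 11 immediate early genes were likewise called lower in mdx against control and higher in libraries labelled Sirt6mKO/mdx against mdx, although Egr1, Ier2 and Dusp1 had their highest mean in the latter libraries rather than in control. Their part in the Sik1 values was not tested. Mef2d, a MEF2 factor bound by class IIa enzymes, fell from 796 and 713 in control to 244 and 336 in mdx (log2 fold change -1.39, SE 0.25, limma adjusted p = 0.00181). Ywhae, a 14-3-3 protein, was higher in mdx, by 1.02.

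In libraries labelled Sirt6mKO/mdx against mdx, 2 of these 22 genes were called higher and 4 lower, or 27.3% beside the 8.17% of all genes (median -0.28, against 0.02 over all genes tested). Besides Sik1, they included the 14-3-3 gene Ywhab at -1.50, the nuclear export receptor gene Xpo1 at -1.12 and the protein kinase D gene Prkd3 at -1.04. The count fell to 1 when any library of either group was left out. Against control, 1 was called (4.55% beside 7.87% of all genes), the 14-3-3 gene Ywhag, at -1.10 (median of the list -0.19, against 0.01 over all genes tested).

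Subunits of the complexes of class I enzymes are set beside the shares over all genes, of which 14.2%, 8.17% and 7.87% were called in mdx against control, Sirt6mKO/mdx against mdx and Sirt6mKO/mdx against control, and 31%, 25.2% and 24.1% had an unadjusted p under 0.05. In mdx against control, 1 of 15 Sin3 subunits was called (6.67%), Ing2, which reads methylated histone H3, at -1.63 (174 and 108 in control, 43 and 44 in mdx). The median of the Sin3 list was -0.01 in mdx against control, 0.23 in Sirt6mKO/mdx against mdx and 0.06 in Sirt6mKO/mdx against control. Of the 13 NuRD subunits limma called 0 in each of these comparisons, with 3, 2 and 3 at an unadjusted p under 0.05 and medians of -0.15, -0.04 and 0.03. Of the 11 CoREST and MIER subunits it also called 0, with 3 at an unadjusted p under 0.05 in each comparison and medians of 0.01, 0.26 and 0.44. Of the 5 genes of the NCoR list, Cops2, a subunit of the COP9 signalosome that is not part of the core NCoR complex, was called higher in mdx against control (1.33) and in libraries labelled Sirt6mKO/mdx against control (1.38). The medians of this list were 0.29, -0.01 and 0.16. Ing2 was called higher in libraries labelled Sirt6mKO/mdx against mdx, at 1.29. In libraries labelled Sirt6mKO/mdx against control, Sap30l (1.57) and Sap18 (-1.08) of the Sin3 list were called (13.3%). The count of Sin3 subunits called fell to 0 without control replicate 1 or either mdx library in mdx against control, and without any library of either group in the comparison of Sirt6mKO/mdx with mdx. It lay between 0 and 1 against control. The call of Cops2 was lost without control replicate 2 or mdx replicate 1 in mdx against control, and without control replicate 2 or Sirt6mKO/mdx replicate 2 against control.

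Of the 13 histone acetyltransferases, which add the groups that deacetylases remove, limma called 0 in each comparison, with 5, 4 and 1 at an unadjusted p under 0.05 and medians of -0.43, 0.20 and -0.21. Of all genes tested, 14.2%, 8.17% and 7.87% were called, and 31%, 25.2% and 24.1% had an unadjusted p under 0.05. Of 17 bromodomain readers of acetylated lysine, 1 was called in each comparison with mdx (5.88%, beside 14.2% and 8.17% of all genes), and limma called 0 in libraries labelled Sirt6mKO/mdx against control (4 at an unadjusted p under 0.05). The remodelling subunit gene Baz1a was called lower in mdx against control (-2.02, from 648 and 632 to 162 and 153) and higher in libraries labelled Sirt6mKO/mdx against mdx (1.22). The latter call was lost without any 1 library of either group. The medians of this list were -0.24, 0.06 and -0.24. Of 9 genes of substrates other than histones, the HSP90 genes Hsp90aa1 (-2.41) and Hsp90ab1 (-1.48) were called lower in mdx against control (22.2%, beside 14.2% of all genes). All immediate early and dissociation response genes, among them Hspa1a (-2.52) and Hspa1b (-2.58), were called lower there too. They were called higher in Sirt6mKO/mdx against mdx, and their part in the values of this list was not tested. In libraries labelled Sirt6mKO/mdx against mdx, Hsp90aa1 was called higher at 2.05, and the tubulin genes Tuba1a (-1.11) and Tuba1b (-1.31), which have close copies, were called lower, a count of 3 (33.3%, beside 8.17% of all genes) that fell to between 0 and 1 without any 1 library of either group. Against control, Tuba1b alone of these was called, at -1.34 (11.1%, beside 7.87% of all genes). The medians were -0.03, -0.47 and -0.29.

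**Figure D5:**
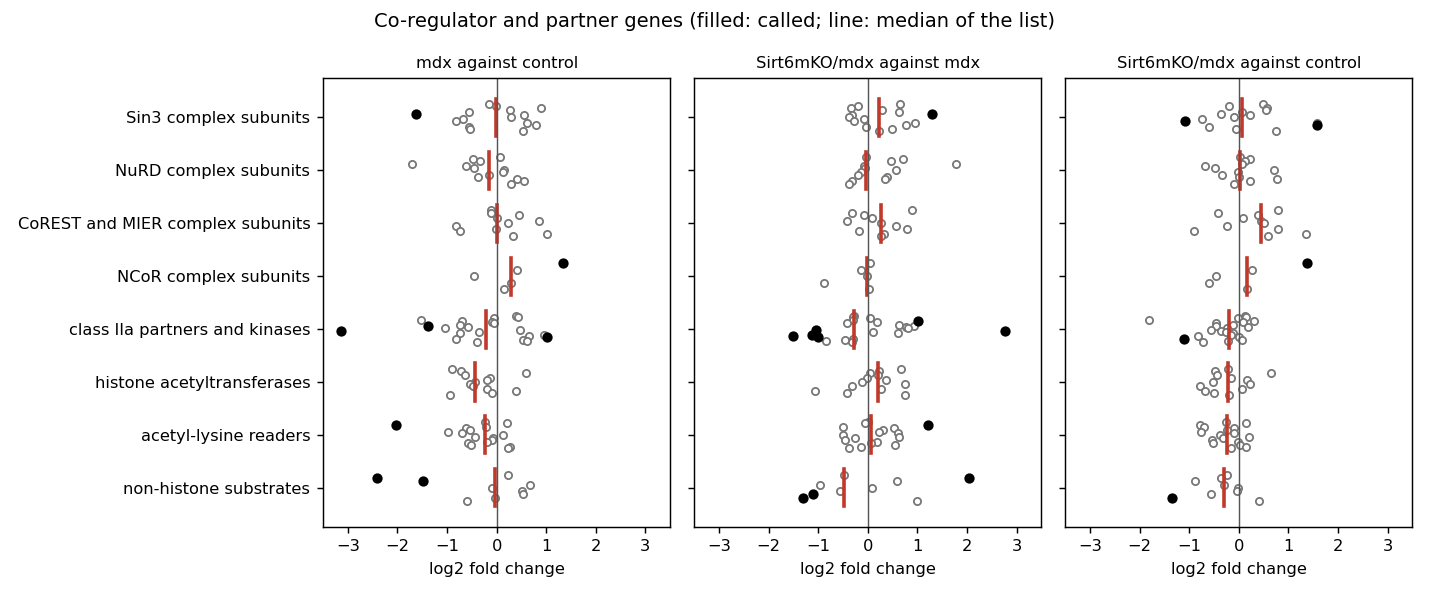
log2 fold change (horizontal axis) of the genes of 8 lists of co-regulators, partners and substrates in 3 comparisons, with filled points for called genes and a red line at the median of a list. Most genes lie between -1 and 1, and Sik1, at -3.13 and 2.77, is farthest out in mdx against control and in Sirt6mKO/mdx against mdx.

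The genes whose pattern over the 6 libraries was most like that of each called row were sought among 9665 genes with a mean of at least 50, by the root mean square difference of log2 values centred on the gene. For the main row of Hdac4 they were Ell2 (0.097), Prex1 (0.111) and Mef2d (0.126), and for the 3′ UTR row Tenm3 (0.173), Atp10d (0.238) and Naalad2 (0.248). For Hdac5 they were Pabpn1 (0.104), Wtip (0.119) and Cited2 (0.136), and for Hdac6 Slc25a27 (0.109), Actr5 (0.124) and Nckap5l (0.135). A MEF2 gene was thus the third closest to the main row of Hdac4, but not among the 3 closest to its 3′ UTR row. The other MEF2 genes tested, Mef2a (-0.05) and Mef2c (-0.74), were not called in mdx against control. Mef2d was at 597 and 497 in libraries labelled Sirt6mKO/mdx, where the main row of Hdac4 was at 656 and 451.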

How the data were processed

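RNA-seq of sorted MuSCs from control, mdx and Sirt6mKO/mdx mice was analysed, with 2 libraries per group assigned by their GEO labels. Total RNA was depleted of ribosomal RNA and sequenced on an Ion Torrent instrument. Per the study's methods and the submitters' processing notes, the authors used Reaper for trimming and STAR for alignment to GRCm38, counted reads per gene with featureCounts 1.4.5-p1 without reads of several genes or places, and normalized with DESeq2. The use of strand is not stated. The deposited values are whole numbers whose gaps fit counts divided by a size factor and rounded, so their unit was taken as a score, here called the normalized read count, and no count test was run. Size factors recovered from the gaps ranged from 0.5366 to 1.5258.

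Values were tested with limma 3.58.1 (R 4.3.3) on log2(value + 1), with a prior variance following the mean and all 6 libraries in 1 fit. Genes with a mean of at least 5 were tested (15915 genes), and p-values were adjusted over all of these by Benjamini-Hochberg. The script was checked on simulated data. Exonic lengths, overlaps and the Hdac4 UTR came from GENCODE M21 of GRCm38, which held 98.5% of the identifiers, and copies were sought by sequence. Promoter sequences came from RefSeq (GRCm38.p6), without Hdac1, Hdac3 and Hdac10. All members are reported. From each list, up to 4 called genes whose mean was 50 or more are named per comparison by absolute log2 fold change, with the 3 genes of most similar pattern for each called row. Members and lists were chosen with earlier results of these data known, and 1 gene of the NCoR list is not reported here. Alternatives changed the scaling, pseudocount, minimum mean, prior variance, GC centring, replicate block, samples in the fit and the treatment of the Hdac4 rows, the last chosen after seeing the data, and left out each library in turn. Same-numbered libraries did not deviate together (correlations of -0.128, 0.119 and 0.00934), so the numbers were not taken as pairs.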

Additional observations from a re-analysis of the deposited data

How the results depend on the processing

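The count of Hdac rows called was 2 in mdx against control, 3 in Sirt6mKO/mdx against mdx and 1 in Sirt6mKO/mdx against control. With no minimum mean or with 1 prior variance it was 0 in all 3. Few genes of any kind were called under these settings. The shares of all genes tested were 1.79%, 0.0837% and 0.00881% with no minimum mean, and 3.4%, 0% and 0.547% with 1 prior variance. With the Hdac4 rows summed the count of Hdac rows called was 1, 2 and 0. In Sirt6mKO/mdx against mdx it was also 0 with the upper quartile or GC centring and 1 with a pseudocount of 0.1. Leaving out 1 library gave 2 to 3, 0 to 3 and 0 to 2 rows. Scaling by the total of the values moved the median of all genes from 0.02 to -0.59 in Sirt6mKO/mdx against mdx, where it called Hdac1 (-1.21) and Hdac10 (-1.21) lower instead of the 3 others higher (Hdac4 main row 0.40, Hdac5 0.39, Hdac6 0.48), and gave 4 calls against control (Hdac1, Hdac10, both Hdac4 rows). The share of called genes that were higher fell from 68.8% to 14% in the former. Under this scaling the 3′ UTR row (-0.29) and Hdac8 (-0.25) reversed against mdx, and Hdac2 (-0.03), Hdac3 (-0.48), Hdac7 (-0.04) and Hdac8 (-0.11) against control. GC centring reversed Hdac5 (0.02) and Hdac8 (-0.15) in mdx against control and the 3′ UTR row (-0.03) in Sirt6mKO/mdx against mdx. With 1 library left out, values that changed sign ranged from -0.49 to 0.17 for Hdac5 and from -0.17 to 0.40 for Hdac8 in mdx against control, from -0.13 to 0.79 for the 3′ UTR row and from -0.50 to 0.42 for Hdac7 in Sirt6mKO/mdx against mdx, and from -0.03 to 0.27 for Hdac3 in Sirt6mKO/mdx against control. The causes were not tested.

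The replicate block, by numbers that did not pair the libraries, gave 2, 3 and 1 rows called. Depth limits Hdac9 most, with at most 6 reads in a library, and then Hdac7, Hdac10, Hdac8 and the 3′ UTR row of Hdac4, with as few as 26, 32, 35 and 35.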

Other observations

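Hdac11, the only class IV enzyme and no member of the set above, was chosen after its values were seen. It was at 137 and 150 in control, against 296 and 299 for mdx and 232 and 393 for libraries labelled Sirt6mKO/mdx. It was called higher than control in mdx (log2 fold change 1.05, SE 0.29, limma adjusted p = 0.0237) and in libraries labelled Sirt6mKO/mdx (1.07, SE 0.29, limma adjusted p = 0.0332), while these 2 groups differed by 0.02 (95% interval -0.60 to 0.64).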
